A study of Mus musculus with 10 samples.

Results

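Extracellular matrix genes were described in kidney cortex of diabetic and non-diabetic mice. They comprise the collagens, the lysyl oxidases that crosslink them, the laminin chains and a set of matrix glycoproteins and proteoglycans. They were chosen by symbol, as every gene whose symbol starts with Col and a digit, Lox and Loxl1 to Loxl4, the Lama, Lamb and Lamc chains, and Fn1, Sparc, Postn, Fbn1, Lum, Dcn, Bgn, Mgp, Eln, Nid1 and Nid2. The supplied annotation named 67 such genes among 16475 genes with a value. Fbn1, Col6a6, Col21a1, Col28a1 and Lamb4 were among the symbols not matched. The groups were 5 db/db mice, which are diabetic and carry the db mutation of the leptin receptor gene on both copies, and 5 db/m mice, non-diabetic littermates that carry the db allele on the one chromosome and the coat colour allele misty, for which the m stands, on the other. Both groups were of the BKS strain and 24 weeks old, no treatment was given, and sex is not stated in the labels. The mutation acts in the whole animal, so the kidney of db/db mice is that of an obese, hyperglycaemic mouse. Each mouse gave 1 Affymetrix array of cortex from which glomeruli had been depleted, and values are RMA log2 levels, so that a difference of 1 is a 2-fold difference. The series, by its title, concerns nutrient flux and metabolism in tissues with diabetic complications, and the comparison used here is that of diabetic with non-diabetic cortex.

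Matrix in the kidney comprises basement membranes and interstitial matrix. Basement membranes are sheets of network collagen IV and laminin, tied together by nidogens, under every tubule, glomerulus and vessel. The interstitial matrix between tubules is built from fibrils of collagens I, III and V, decorated by fibril-associated collagens and small leucine-rich proteoglycans, crosslinked by lysyl oxidases and bound to cells through fibronectin. Interstitial fibrils are made mainly by fibroblasts and pericytes, and their accumulation is fibrosis; tubule cells make basement membrane chains themselves. Levels are compared between mice and not between genes, because each gene has its own probes.

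The library of db/db mouse 1 stood apart. Across genes its Pearson r with the other 9 arrays was 0.938 to 0.962, against 0.985 or more among those 9, and its median level was 8.66 against a mean of 8.49 for the db/m arrays. Taken gene by gene, however, the median of its level minus the db/m mean was -0.17. Results are therefore given for all 10 arrays, without db/db 1, and for db/db mice 3 to 5 against the 5 db/m mice. That last choice, which leaves out db/db 1 and 2, was made with earlier results of these data known, so its calls are not independent evidence. All 8 proximal tubule markers were measured, and Slc34a1, the phosphate transporter of that segment, averaged 13.76 ± 0.017 (SD, n = 5) in db/m. Markers of podocytes, which belong to glomeruli, were still present, with Wt1 at 8.87 ± 0.15 (SD, n = 5) in db/m.

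Of the 67 matrix genes, 4 rose and 3 fell in db/db by limma at an adjusted p under 0.05 with all arrays. The network collagen gene Col8a1, the fibril-associated collagen gene Col12a1 and the laminin genes Lamb2 and Lamc1 rose, while the fibril-associated collagen gene Col19a1 and the laminin genes Lamc3 and Lama2 fell. That is 10.4% of the matrix genes, where 6.51% of all genes passed (2.96% higher and 3.54% lower). The median change was 0.0094 over the matrix genes and -0.033 over all genes. In 7 matrix genes all 5 db/db mice lay on one side of all 5 db/m mice, 10.4% of them against 10.2% of all genes (5 higher and 2 lower, where 4.35% and 5.85% of all genes were). Without db/db 1, 6 rose and 4 fell, where 6.84% and 5.93% of all genes did (12.8% in all), and with db/db mice 3 to 5 alone 5 rose and 10 fell, where 6% of all genes rose and 5.13% fell. Of the 15 genes past the threshold in that last comparison, 6 had been called with the same sign with all arrays and 9 had not. Fewer cells of a type and less RNA per cell cannot be told apart in whole tissue.

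**Figure D1:**
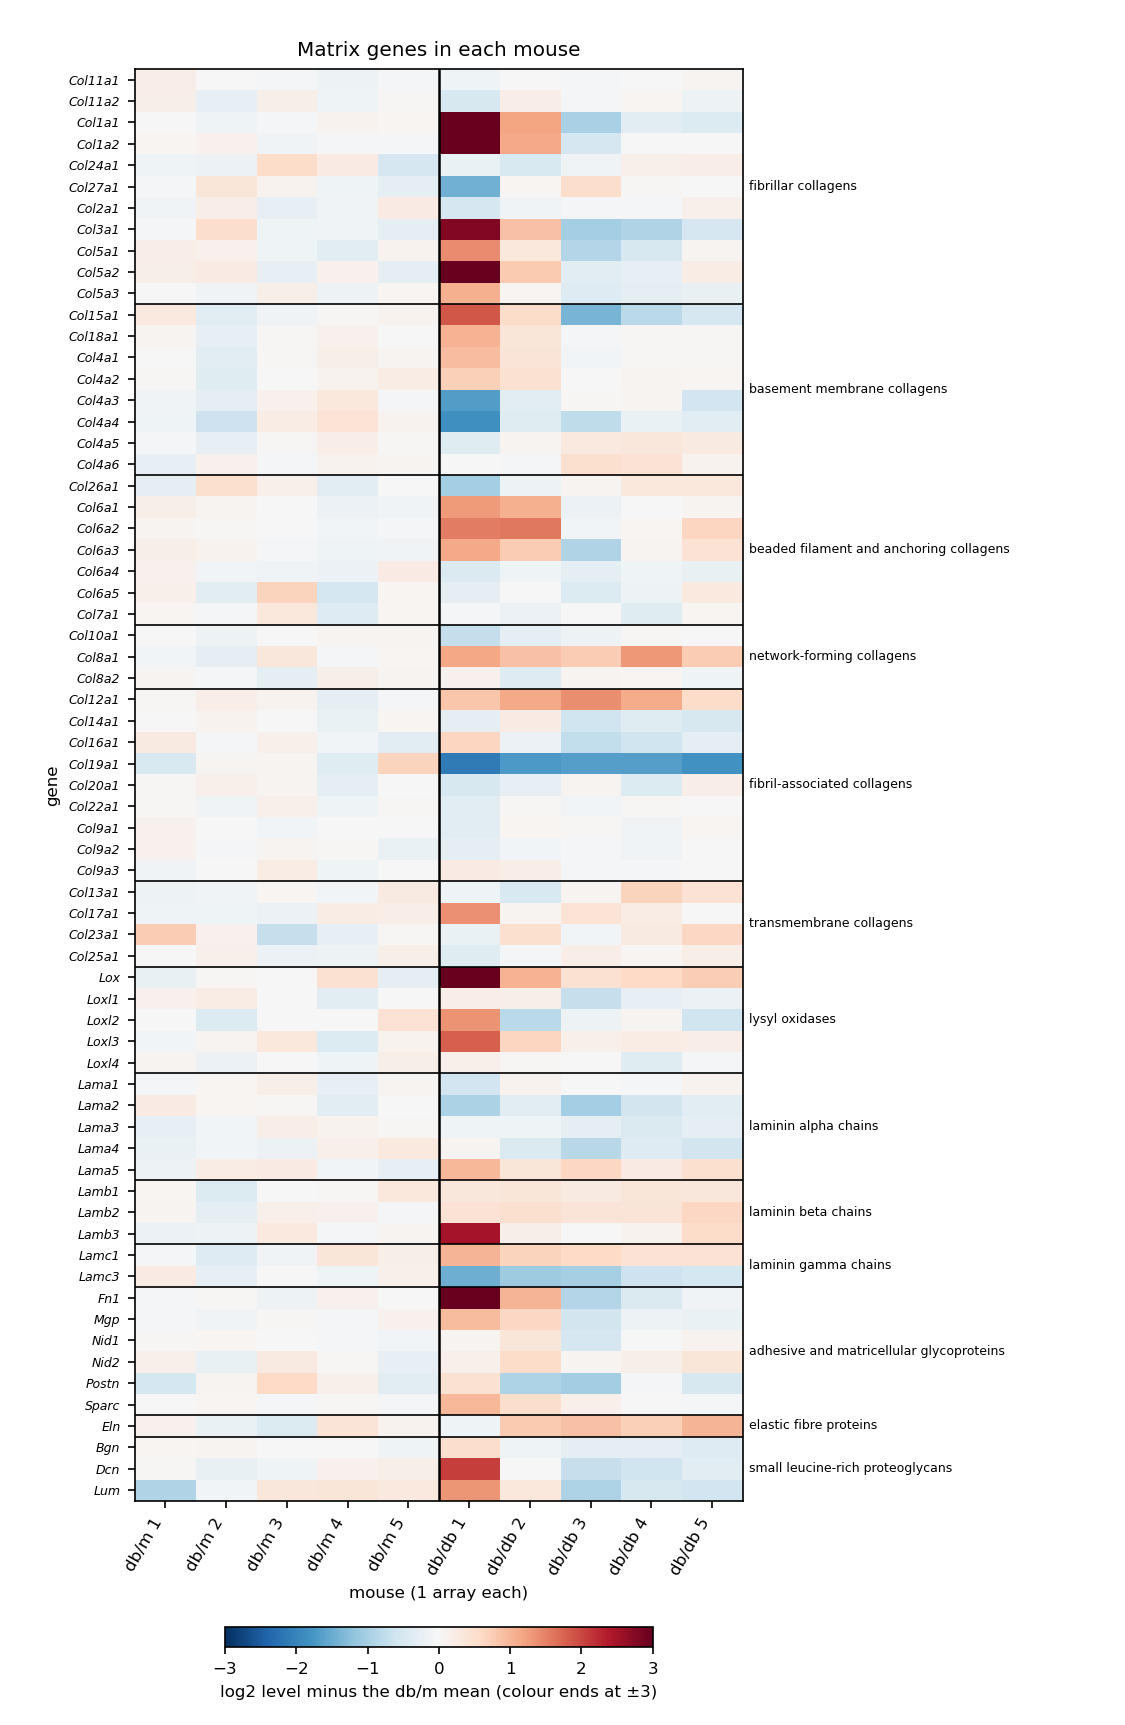
Log2 level of each of the 67 matrix genes (rows, grouped by role) in each of the 10 mice (columns), minus the mean of the 5 db/m mice; red is higher and blue lower. Col1a1, Col1a2, Col3a1, Fn1 and Lox are dark red in db/db 1 and paler red in db/db 2, while Col8a1, Col12a1 and Col19a1 have 1 direction in all 5 db/db mice.

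The mice of the db/db group differed among themselves more than the averages show. In db/db 1, 21 matrix genes exceeded the mean of the db/m mice by over 2-fold and 6 fell short of it by over 2-fold, which is 31.3% and 8.96% of them, where 9.83% and 4.6% of all genes were. In db/db 2 these were 7 and 2 genes (all genes 2.81% and 1.1%). In db/db 3 they were 1 and 5 (all genes 1.72% and 1.54%), in db/db 4 they were 2 and 1 (0.989% and 0.995%), and in db/db 5 they were 1 and 1 (1.51% and 1.37%). Counted by range instead, db/db 1 lay above all 5 db/m mice in 33 matrix genes and below all 5 in 19, where 25.1% and 49.4% of all genes did. These counts were 28 and 9 in db/db 2 (all genes 23.6% and 27%), 13 and 26 in db/db 3 (24% and 26.1%), 11 and 19 in db/db 4 (22.2% and 21.9%) and 17 and 16 in db/db 5 (25.6% and 24.2%). With db/db 3 to 5 as a group, 7 matrix genes had all values above db/m and 12 all below, where 10% and 9.85% of all genes did. Thus db/db 1 held most of the large rises, and db/db 3 most of the large falls among mice 3 to 5.

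Collagen I and III, the main fibrils of scar and of vessel walls, were high in db/db 1, raised less in db/db 2, and within or below the db/m range in db/db 3 to 5. Col1a1, the major chain of collagen I, read 8.33, 8.18, 8.24, 8.42 and 8.35 in db/m 1 to 5 and 12.36, 9.49, 7.33, 7.97 and 7.88 in db/db 1 to 5. Every db/m value lay within 8.18 to 8.42, db/db 1 was 16.7-fold and db/db 2 2.28-fold above the db/m mean, and db/db 3 to 5 lay below all 5 db/m mice. Its partner chain gene Col1a2 read 9.36, 9.44, 9.21, 9.26 and 9.26 in db/m 1 to 5 and 12.36, 10.45, 8.80, 9.30 and 9.31 in db/db 1 to 5, which is 8.31-fold above the db/m mean in db/db 1 and 2.20-fold in db/db 2. Of mice 3 to 5 only db/db 3 lay below the db/m range of Col1a2, so the chains of collagen I did not have the same pattern in these 3 mice. The collagen III gene Col3a1 read 10.50, 11.08, 10.42, 10.44 and 10.28 in db/m 1 to 5 and 13.32, 11.42, 9.53, 9.64 and 10.03 in db/db 1 to 5. Here db/db 1 was 6.85-fold above the db/m mean, and db/db 3 to 5 again lay below all 5 db/m mice.

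None of these passed with all arrays, and each standard error was close to the change or larger: the log2 changes were 0.71 ± 0.81 for Col1a1 (adjusted p = 0.663), 0.74 ± 0.57 for Col1a2 (adjusted p = 0.503) and 0.24 ± 0.65 for Col3a1 (adjusted p = 0.863). With db/db mice 3 to 5 alone the sign turned, to -0.57 ± 0.14 for Col1a1 (adjusted p = 0.0316), -0.17 ± 0.12 for Col1a2 (adjusted p = 0.458) and -0.81 ± 0.19 for Col3a1 (adjusted p = 0.0249). Col5a2, a chain of collagen V, which nucleates collagen I fibrils, read 5.69, 5.77, 5.28, 5.65 and 5.22 in db/m 1 to 5 and 9.00, 6.31, 5.18, 5.26 and 5.73 in db/db 1 to 5; it was 11.1-fold above the db/m mean in db/db 1 and within or just below the db/m range in db/db 3 and 4. Its change was 0.78 ± 0.63 with all arrays (adjusted p = 0.527). The gene neighbours Col3a1, and both were highest in db/db 1 and next highest in db/db 2. The 7 other fibrillar genes (Col2a1, Col5a1, Col5a3, Col11a1, Col11a2, Col24a1 and Col27a1), of which 5 were dim, that is, among the lowest 25% of genes by mean level, had changes between -0.16 and 0.092. In db/db 1 they ranged from -1.44 in Col27a1 to 1.41 in Col5a1. So 0 of 11 fibrillar collagens passed by limma with all arrays, with a lowest adjusted p of 0.503 and 0 at an unadjusted p under 0.05, where 21.5% of all genes were. With db/db mice 3 to 5 alone 2 of them fell, where 5.13% of all genes did.

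**Figure D2:**
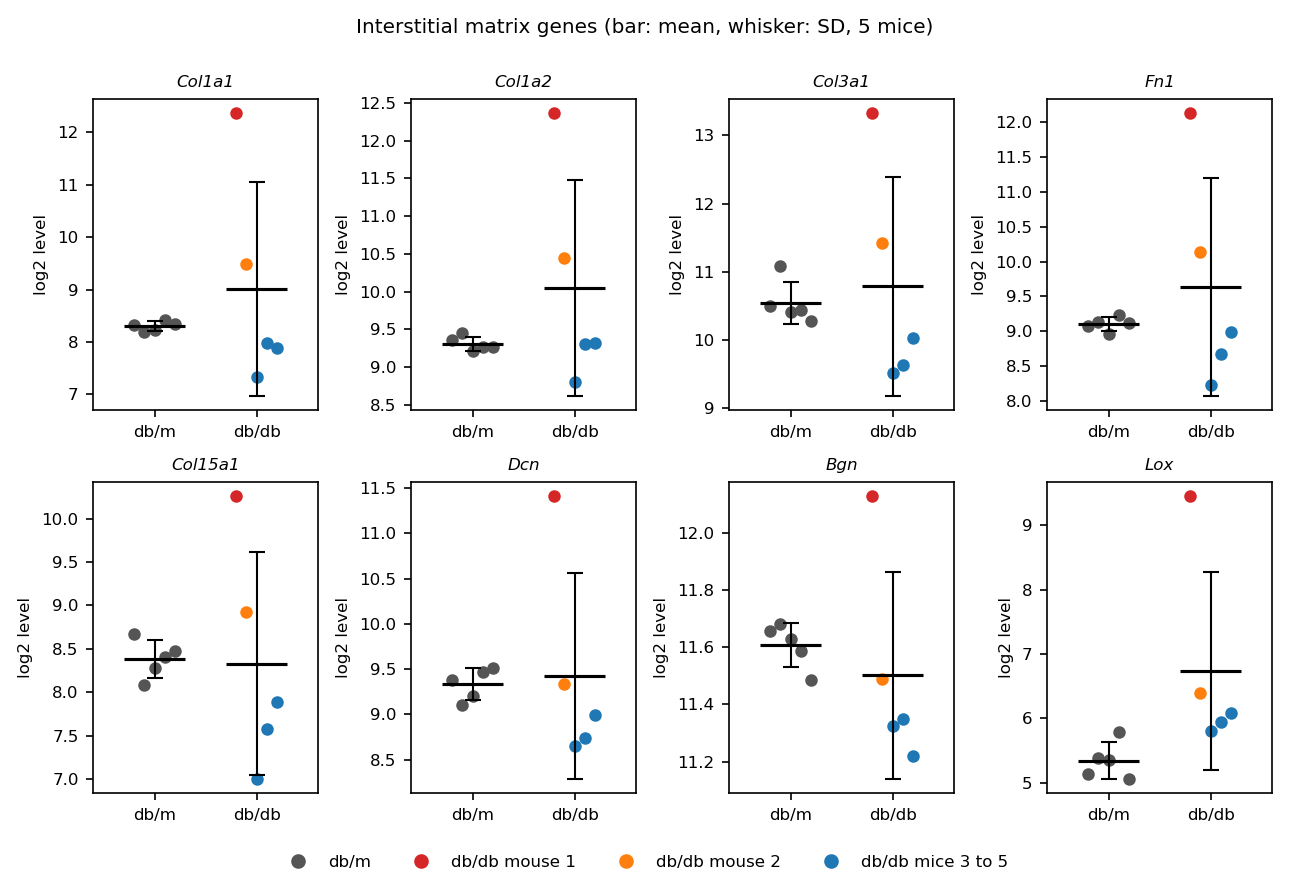
Log2 levels of 8 interstitial matrix genes in 5 db/m and 5 db/db mice, 1 point per mouse, with the group mean (bar) and SD (whisker); db/db 1 is red, db/db 2 orange and db/db 3 to 5 blue. The red point is the highest of all 10 in each panel, Col1a1 at 12.36 for example, and in Lox alone of these 8 do all 5 db/db mice lie above all 5 db/m mice.

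The promoter of Col1a2 is shown because collagen I is the main interstitial fibril and its genes were far apart between the diabetic mice. It is taken from RefSeq (GRCm38.p6), chr6:4505368-4505667 on the + strand, 250 bases before to 50 bases after the annotated start, with capitals marking CCAAT boxes (CCAAT) and GC boxes (GGGCGG) found on either strand.
Col1a2: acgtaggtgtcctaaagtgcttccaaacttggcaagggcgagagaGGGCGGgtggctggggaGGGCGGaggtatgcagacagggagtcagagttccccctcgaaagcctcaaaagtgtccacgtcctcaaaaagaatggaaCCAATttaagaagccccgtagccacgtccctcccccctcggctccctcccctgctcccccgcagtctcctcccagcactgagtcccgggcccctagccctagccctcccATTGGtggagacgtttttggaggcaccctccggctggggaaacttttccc
The window holds 2 CCAAT boxes and 2 GC boxes and no TATAAA. Among 32851 promoter windows of this length in the RefSeq table, 37.4% hold a CCAAT box, 35.7% a GC box and 13.6% a TATAAA; 43 of the 67 matrix genes had a window there, and of their 48 windows 33.3%, 58.3% and 12.5% did. These are matches of letters and not measured binding sites.

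Lysyl oxidase and fibronectin followed collagen I in db/db 1, but only Lox stayed above db/m in every diabetic mouse. Lox, the enzyme that starts crosslinking of collagen and elastin, read 5.13, 5.38, 5.36, 5.79 and 5.06 in db/m 1 to 5 and 9.45, 6.39, 5.81, 5.94 and 6.08 in db/db 1 to 5. It was 17.2-fold above the db/m mean in db/db 1, and the lowest db/db value, 5.81, was above the highest db/m value, 5.79. The change was 1.39 ± 0.62 with all arrays (adjusted p = 0.228), 0.71 ± 0.16 without db/db 1 (adjusted p = 0.0189) and 0.60 ± 0.16 with db/db mice 3 to 5 alone (adjusted p = 0.0419), so it passed in the fits that left out db/db 1. Of the related enzymes Loxl1, Loxl2, Loxl3 and Loxl4 none passed in any of the 3 fits; their changes with all arrays were -0.15 in Loxl1 to 0.60 in Loxl3, and Loxl3 was 3.46-fold above the db/m mean in db/db 1. Fn1, which encodes fibronectin, read 9.08, 9.13, 8.95, 9.23 and 9.12 in db/m 1 to 5 and 12.13, 10.13, 8.23, 8.67 and 9.00 in db/db 1 to 5. The value was 8.14-fold above the db/m mean in db/db 1 and 2.04-fold in db/db 2, while db/db 3 and 4 lay below the db/m range and db/db 5 at 9.00 lay within it. Its change was 0.53 ± 0.62 with all arrays (adjusted p = 0.67), and -0.47 ± 0.15 with db/db mice 3 to 5 alone (adjusted p = 0.0875), past the threshold in neither.

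Of the small leucine-rich proteoglycans, which coat collagen fibrils and set their width, Dcn and Bgn were lower in db/db 3 to 5. Dcn (decorin) read 9.38, 9.11, 9.20, 9.47 and 9.52 in db/m 1 to 5 and 11.41, 9.33, 8.65, 8.74 and 9.00 in db/db 1 to 5. It was 4.22-fold above the db/m mean in db/db 1, at that mean in db/db 2 and below all 5 db/m mice in db/db 3 to 5. Bgn (biglycan) read 11.66, 11.68, 11.63, 11.59 and 11.49 in db/m 1 to 5 and 12.13, 11.49, 11.33, 11.35 and 11.22 in db/db 1 to 5, again highest in db/db 1, with db/db 2 at the lower edge of the db/m range and db/db 3 to 5 below it. With all arrays the changes were 0.092 ± 0.46 in Dcn (adjusted p = 0.931) and -0.11 ± 0.16 in Bgn (adjusted p = 0.74); with db/db mice 3 to 5 alone they were -0.54 ± 0.12 (adjusted p = 0.0225) and -0.31 ± 0.072 (adjusted p = 0.026), and Bgn was also lower without db/db 1 (-0.26, adjusted p = 0.0402). Lum (lumican), a neighbour of Dcn, was dim and read 3.67, 4.50, 4.90, 4.92 and 4.86 in db/m 1 to 5 and 5.89, 4.88, 3.65, 4.10 and 4.00 in db/db 1 to 5. Its db/m values were spread from 3.67 to 4.92, and it passed in none of the 3 fits (-0.067 ± 0.42 with all arrays, adjusted p = 0.945).

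Basement membrane collagens split by chain. Col4a1 and Col4a2, which form the collagen IV of most basement membranes, stood alike in the diabetic mice, and Col4a3 and Col4a4, which form the collagen IV of glomeruli and distal tubules, were low in db/db 1. Col4a1 read 11.86, 11.53, 11.87, 12.03 and 11.92 in db/m 1 to 5 and 12.76, 12.23, 11.75, 11.87 and 11.87 in db/db 1 to 5. Col4a2 read 11.88, 11.49, 11.86, 11.95 and 12.07 in db/m 1 to 5 and 12.57, 12.31, 11.84, 11.93 and 11.91 in db/db 1 to 5. In both, db/db 1 and 2 were above all 5 db/m mice and db/db 3 to 5 were inside the db/m range. Set against the db/m mean, Col4a1 stood at 0.92, 0.38, -0.091, 0.025 and 0.026 in db/db 1 to 5, and Col4a2 at 0.72, 0.46, -0.01, 0.081 and 0.057 in db/db 1 to 5. Neither passed: the changes were 0.25 ± 0.19 (adjusted p = 0.481) and 0.26 ± 0.16 (adjusted p = 0.384), and -0.013 ± 0.11 and 0.042 ± 0.12 with db/db mice 3 to 5 alone (adjusted p = 0.966 and 0.883).

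These genes are transcribed away from each other from neighbouring starts, and their promoters are shown because they overlap. The windows are from RefSeq (GRCm38.p6), chr8:11312777-11313076 on the - strand for Col4a1 and chr8:11312555-11312854 on the + strand for Col4a2, each 5′ to 3′ along its own gene, with capitals as for Col1a2.
Col4a1: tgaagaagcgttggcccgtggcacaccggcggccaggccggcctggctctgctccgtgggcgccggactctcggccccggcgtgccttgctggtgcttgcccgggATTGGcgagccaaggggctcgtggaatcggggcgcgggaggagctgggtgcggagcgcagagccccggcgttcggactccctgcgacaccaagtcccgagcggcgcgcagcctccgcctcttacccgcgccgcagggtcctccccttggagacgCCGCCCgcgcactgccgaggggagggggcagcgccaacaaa
Col4a2: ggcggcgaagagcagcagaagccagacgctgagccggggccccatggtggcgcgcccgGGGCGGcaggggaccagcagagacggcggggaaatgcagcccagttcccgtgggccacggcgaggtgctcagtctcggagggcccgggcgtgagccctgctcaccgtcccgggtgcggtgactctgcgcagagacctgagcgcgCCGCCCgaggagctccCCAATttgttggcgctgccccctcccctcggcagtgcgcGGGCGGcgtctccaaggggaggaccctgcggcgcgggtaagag
The windows overlap by 78 bases. Neither window holds a TATAAA, and each holds 1 CCAAT box, with 1 GC box for Col4a1 and 3 for Col4a2. The GC box of Col4a1 and the last GC box of Col4a2 are the same bases of the overlap, read from opposite strands.

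Col4a3 read 10.17, 10.00, 10.42, 10.61 and 10.22 in db/m 1 to 5 and 8.61, 9.97, 10.33, 10.36 and 9.71 in db/db 1 to 5. Its neighbour Col4a4 read 8.12, 7.62, 8.47, 8.66 and 8.36 in db/m 1 to 5 and 6.40, 7.88, 7.48, 8.04 and 7.91 in db/db 1 to 5. In both genes db/db 1 was the lowest of the 10 mice, at 0.31 and 0.28 of the db/m mean on the linear scale. Below all 5 db/m mice were also db/db 2 and 5 in Col4a3 and db/db 3 in Col4a4, and the remaining diabetic mice lay within the db/m range. The changes were -0.49 ± 0.30 (adjusted p = 0.387) and -0.70 ± 0.31 (adjusted p = 0.23), and Col4a4, the lowest adjusted p of this class, stayed short of the threshold in all 3 fits. Of 5 podocyte markers, of a cell that makes these chains, 3 rose by limma, where 2.96% of all genes did. Relative to db/m, the median of the 5 stood at 0.27 for db/db 1 and 0.35 to 0.61 for the other diabetic mice. The markers were split in db/db 1, with Nphs1 (-0.20) and Podxl (-0.12) negative and the 3 that rose positive (0.27 to 0.67). The part of podocytes in the Col4a3 and Col4a4 values was not tested. Col4a5 and Col4a6, a further neighbouring pair, were at 0.13 and 0.19 and did not pass, and Col18a1, whose end fragment is endostatin, was at 0.28. Against a db/m range of 9.92 to 10.36, Col4a5 was lower in db/db 1 (9.81), inside in db/db 2 (10.25) and higher in db/db 3 to 5 (10.45 to 10.52). Col15a1, a collagen of the zone between basement membrane and interstitium, read 8.67, 8.08, 8.28, 8.41 and 8.48 in db/m 1 to 5 and 10.26, 8.92, 7.00, 7.58 and 7.88 in db/db 1 to 5. It had the order of Col1a1 and Col3a1, with db/db 1 at 3.67-fold of the db/m mean and db/db 3 to 5 below all 5 db/m mice, and was at -0.055 ± 0.52 with all arrays (adjusted p = 0.964) and -0.90 ± 0.20 with db/db mice 3 to 5 alone (adjusted p = 0.0217).

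**Figure D3:**
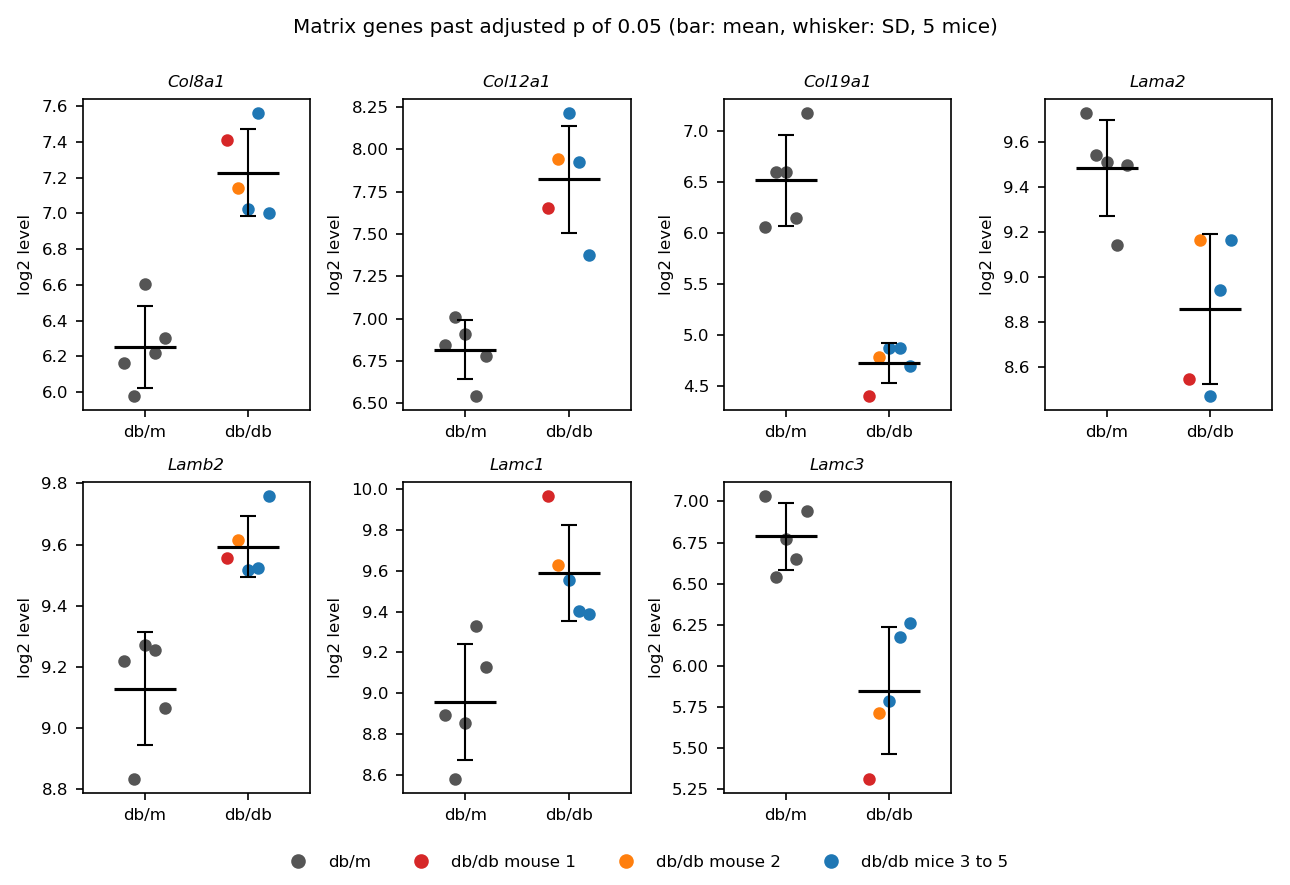
Log2 levels of the 7 matrix genes past an adjusted p of 0.05 with all arrays, in 5 db/m and 5 db/db mice, 1 point per mouse, with the group mean (bar) and SD (whisker). The groups do not overlap in 6 of the 7; in Lama2 the db/m mouse at 9.14 lies below db/db mice 2 and 5.

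The genes that passed with all arrays were of other kinds. In Col8a1, Col12a1, Lamb2 and Lama2 the values of db/db 1 and 2 lay within the span of db/db 3 to 5. Col8a1, a short-chain collagen of vessel walls, read 6.16, 5.98, 6.60, 6.22 and 6.30 in db/m 1 to 5 and 7.41, 7.14, 7.02, 7.56 and 7.00 in db/db 1 to 5. The groups were apart by 7.00 against 6.60, and the level rose 1.97-fold (log2 change 0.98 ± 0.14, adjusted p = 0.00461). Its partner chain gene Col8a2 was dim and was at -0.045 ± 0.12. Col12a1, which binds to the surface of collagen I fibrils, read 6.84, 7.01, 6.91, 6.54 and 6.78 in db/m 1 to 5 and 7.65, 7.94, 8.21, 7.92 and 7.38 in db/db 1 to 5. It rose 2.01-fold (1.00 ± 0.15, adjusted p = 0.00557). The diabetic mouse with the lowest Col1a1, db/db 3, had the highest Col12a1, but db/db 5, with the next lowest Col1a1 (7.88), had the lowest Col12a1 of the diabetic mice. Without db/db 1 and with mice 3 to 5 alone these rises were 0.93 and 0.94 in Col8a1 and 1.05 and 1.02 in Col12a1.

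Col19a1, a rare fibril-associated collagen known from muscle and neurons, had the largest fall of the 67 genes. It read 6.05, 6.60, 6.60, 6.15 and 7.17 in db/m 1 to 5 and 4.40, 4.79, 4.87, 4.87 and 4.69 in db/db 1 to 5. All 5 db/db mice lay between 4.40 and 4.87 and all 5 db/m mice at 6.05 or more, a 3.46-fold drop (log2 change -1.79 ± 0.20, adjusted p = 0.00114), and -1.70 with db/db mice 3 to 5 alone (adjusted p = 0.00292). Its mean over all arrays was dim, below 5.71, so the fold is approximate. Its neighbour Col9a1 read 3.24 to 3.68 in the 10 mice and was at -0.054 ± 0.087 (adjusted p = 0.767). Of the 9 fibril-associated collagens measured 1 rose and 1 fell, where 2.96% of all genes rose and 3.54% fell. Col14a1, a relative of Col12a1, read 7.06, 7.18, 7.09, 6.87 and 7.12 in db/m 1 to 5 and 6.78, 7.32, 6.46, 6.70 and 6.58 in db/db 1 to 5 and did not pass with all arrays (-0.30 ± 0.15, adjusted p = 0.279), and was lower with db/db mice 3 to 5 alone (-0.48 ± 0.09, adjusted p = 0.011). Col9a2, Col9a3, Col16a1, Col20a1 and Col22a1 were between -0.23 and 0.066.

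Laminins, trimers of an alpha, a beta and a gamma chain, changed chain by chain: of 10 measured, 2 rose and 2 fell, where 2.96% of all genes rose and 3.54% fell. Among beta chains, Lamb2, found in basement membranes of glomeruli and vessels, read 9.22, 8.83, 9.27, 9.25 and 9.07 in db/m 1 to 5 and 9.56, 9.61, 9.52, 9.52 and 9.76 in db/db 1 to 5. It rose 1.38-fold (0.46 ± 0.10, adjusted p = 0.0213 by limma), with all 5 db/db mice at 9.52 or more and all 5 db/m mice at 9.27 or less. The 5 podocyte markers had a median change of 0.46 with all arrays. The part of glomerular cells in the Lamb2 value was not tested. Lamb1, the beta chain of most tubules, read 10.92, 10.44, 10.84, 10.88 and 11.17 in db/m 1 to 5 and 11.20, 11.22, 11.13, 11.21 and 11.19 in db/db 1 to 5 and did not pass (0.34 ± 0.12, adjusted p = 0.122). Its db/db values lay within 11.13 to 11.22, a narrower span than the 10.44 to 11.17 of db/m. Lamb3, a chain of epithelial laminin, read 6.40, 6.43, 6.86, 6.50 and 6.66 in db/m 1 to 5 and 9.08, 6.75, 6.58, 6.68 and 7.12 in db/db 1 to 5; db/db 1 was 5.68-fold above the db/m mean and the change was 0.67 ± 0.42 (adjusted p = 0.401).

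Among gamma chains the genes went opposite ways. Lamc1, the gamma chain of nearly every basement membrane, read 8.89, 8.58, 8.86, 9.33 and 9.13 in db/m 1 to 5 and 9.97, 9.63, 9.56, 9.40 and 9.39 in db/db 1 to 5 and rose 1.55-fold (0.63 ± 0.15, adjusted p = 0.0401). Lamc3, a gamma chain of restricted distribution, read 7.03, 6.54, 6.77, 6.65 and 6.94 in db/m 1 to 5 and 5.31, 5.71, 5.79, 6.17 and 6.26 in db/db 1 to 5 and fell 1.91-fold (-0.94 ± 0.18, adjusted p = 0.0147). Both kept the groups apart, and db/db 1 was the extreme mouse in each. With db/db mice 3 to 5 alone Lamc3 was at -0.71 (adjusted p = 0.0149) and Lamc1 at 0.49 (adjusted p = 0.0786).

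Of the 5 alpha chains, Lama2, the alpha chain of muscle and interstitial basement membranes, read 9.73, 9.54, 9.51, 9.14 and 9.50 in db/m 1 to 5 and 8.55, 9.16, 8.47, 8.94 and 9.17 in db/db 1 to 5. It fell 1.55-fold (-0.63 ± 0.16, adjusted p = 0.0498). Lama4, the alpha chain of vessel walls, read 6.95, 7.07, 6.98, 7.31 and 7.44 in db/m 1 to 5 and 7.22, 6.72, 6.32, 6.78 and 6.61 in db/db 1 to 5; it was at -0.42 ± 0.16 with all arrays (adjusted p = 0.164), and lower without db/db 1 (-0.54, adjusted p = 0.0227) and with mice 3 to 5 alone (-0.58, adjusted p = 0.0327). Lama5, the alpha chain of mature glomerular and tubular membranes, read 9.78, 10.16, 10.19, 9.86 and 9.67 in db/m 1 to 5 and 10.92, 10.28, 10.55, 10.19 and 10.40 in db/db 1 to 5, with a change of 0.53 ± 0.15 (adjusted p = 0.0691). Only db/db 4 overlapped the db/m range, at the level of db/m 3. The part of glomerular cells in the Lama5 value was not tested either. Lama1, of proximal tubule membranes, read 9.31, 9.44, 9.56, 9.14 and 9.47 in db/m 1 to 5 and 8.82, 9.49, 9.36, 9.35 and 9.49 in db/db 1 to 5 and was at -0.080 ± 0.14 (adjusted p = 0.784), with db/db 1 lowest of the 10. Lama3 was at -0.25 ± 0.100 (adjusted p = 0.181).

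The calls differed in how far they rested on single mice. Col8a1, Col12a1, Col19a1 and Lamc3 passed in each of the 10 fits that left out 1 array. Lamb2 passed in 8 of them and not without db/m 5 or db/db 2 (adjusted p up to 0.0535), Lamc1 in 3 and not without db/m 1, 2, 3 or 5 or db/db 2, 3 or 4 (up to 0.104), and Lama2 in 2, those without db/m 4 and without db/db 5 (up to 0.117 without db/m 3). With each array centred on its median, Lamb2 and Lamc1 reached adjusted p = 0.0525 and 0.0538.

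In elastin db/db 1 was the diabetic mouse that did not stand above db/m. Eln, the core protein of elastic fibres in vessel walls, read 6.80, 6.46, 6.26, 7.04 and 6.76 in db/m 1 to 5 and 6.53, 7.45, 7.55, 7.37 and 7.70 in db/db 1 to 5. In db/db 2 to 5 it was above all 5 db/m mice, and in db/db 1, at 6.53, it was within their range. The change was 0.65 ± 0.22 with all arrays (adjusted p = 0.121), 0.85 ± 0.15 without db/db 1 (adjusted p = 0.00598) and 0.87 ± 0.17 with db/db mice 3 to 5 alone (adjusted p = 0.0133).

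The remaining glycoproteins did not pass in any of the 3 fits. Nid1 and Nid2 encode the nidogens that link laminin to collagen IV. Nid1 read 8.87, 8.90, 8.84, 8.79 and 8.75 in db/m 1 to 5 and 8.90, 9.18, 8.33, 8.84 and 8.93 in db/db 1 to 5, with a change of 0.0063 ± 0.13 (adjusted p = 0.984), and Nid2 read 9.02, 8.65, 9.13, 8.90 and 8.61 in db/m 1 to 5 and 9.01, 9.41, 8.95, 9.03 and 9.23 in db/db 1 to 5, with 0.26 ± 0.13 (adjusted p = 0.263), the lowest adjusted p of this class. The db/m mice spanned 8.75 to 8.90 in Nid1, with db/db 2 at 9.18 above them, db/db 1 and 5 just above them and db/db 3 at 8.33 below them. Sparc, a collagen-binding matricellular protein, read 11.74, 11.82, 11.73, 11.80 and 11.73 in db/m 1 to 5 and 12.75, 12.29, 11.91, 11.79 and 11.73 in db/db 1 to 5; db/db 1 was 1.98-fold and db/db 2 1.43-fold above the db/m mean, and the change was 0.33 ± 0.18 (adjusted p = 0.323). Mgp, an inhibitor of calcification, read 12.25, 12.18, 12.32, 12.26 and 12.41 in db/m 1 to 5 and 13.23, 12.91, 11.74, 12.13 and 12.07 in db/db 1 to 5, with db/db 1 and 2 above and db/db 3 to 5 below all 5 db/m mice and a change of 0.13 ± 0.26 (adjusted p = 0.806). Postn (periostin), a protein of injured and remodelling tissue, read 5.69, 6.29, 6.81, 6.35 and 5.88 in db/m 1 to 5 and 6.65, 5.28, 5.15, 6.15 and 5.73 in db/db 1 to 5. It stood at -0.41 ± 0.31 (adjusted p = 0.483), and in db/db 1, at 6.65, it lay inside the db/m range of 5.69 to 6.81, unlike Col1a1 and Col3a1.

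Collagen VI, which forms beaded filaments around cells, had 5 genes measured, and none passed in any of the 3 fits. Col6a1, Col6a2 and Col6a3 were high in both db/db 1 and db/db 2, and Col6a4 and Col6a5 were not. Col6a2 read 8.02, 7.97, 7.93, 7.84 and 7.90 in db/m 1 to 5 and 9.46, 9.51, 7.85, 7.98 and 8.57 in db/db 1 to 5. Here db/db 2, at 2.99-fold of the db/m mean, was close to db/db 1, at 2.89-fold, and db/db 5 at 8.57 was also above the db/m range; the change was 0.74 ± 0.32 (adjusted p = 0.211). Its neighbour Col6a1 was 2.42-fold above the db/m mean in db/db 1 and 2.10-fold in db/db 2, with a change of 0.45 ± 0.28 (adjusted p = 0.387), and Col6a3 was 2.20-fold and 1.69-fold above it in these mice. Col6a4 had the lowest adjusted p of the 7 beaded filament and anchoring genes (-0.24 ± 0.10, adjusted p = 0.206), from a dim level. Col6a5, Col7a1 and Col26a1 lay between -0.11 and -0.091. Of the transmembrane collagens Col17a1, of epithelial anchoring, was dim and 2.57-fold above the db/m mean in db/db 1 (0.42 ± 0.24, adjusted p = 0.348), and Col13a1, Col23a1 and Col25a1 lay between 0.0094 and 0.21. Col10a1, of the network-forming class, was dim and at -0.22 ± 0.13.

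**Figure D4:**
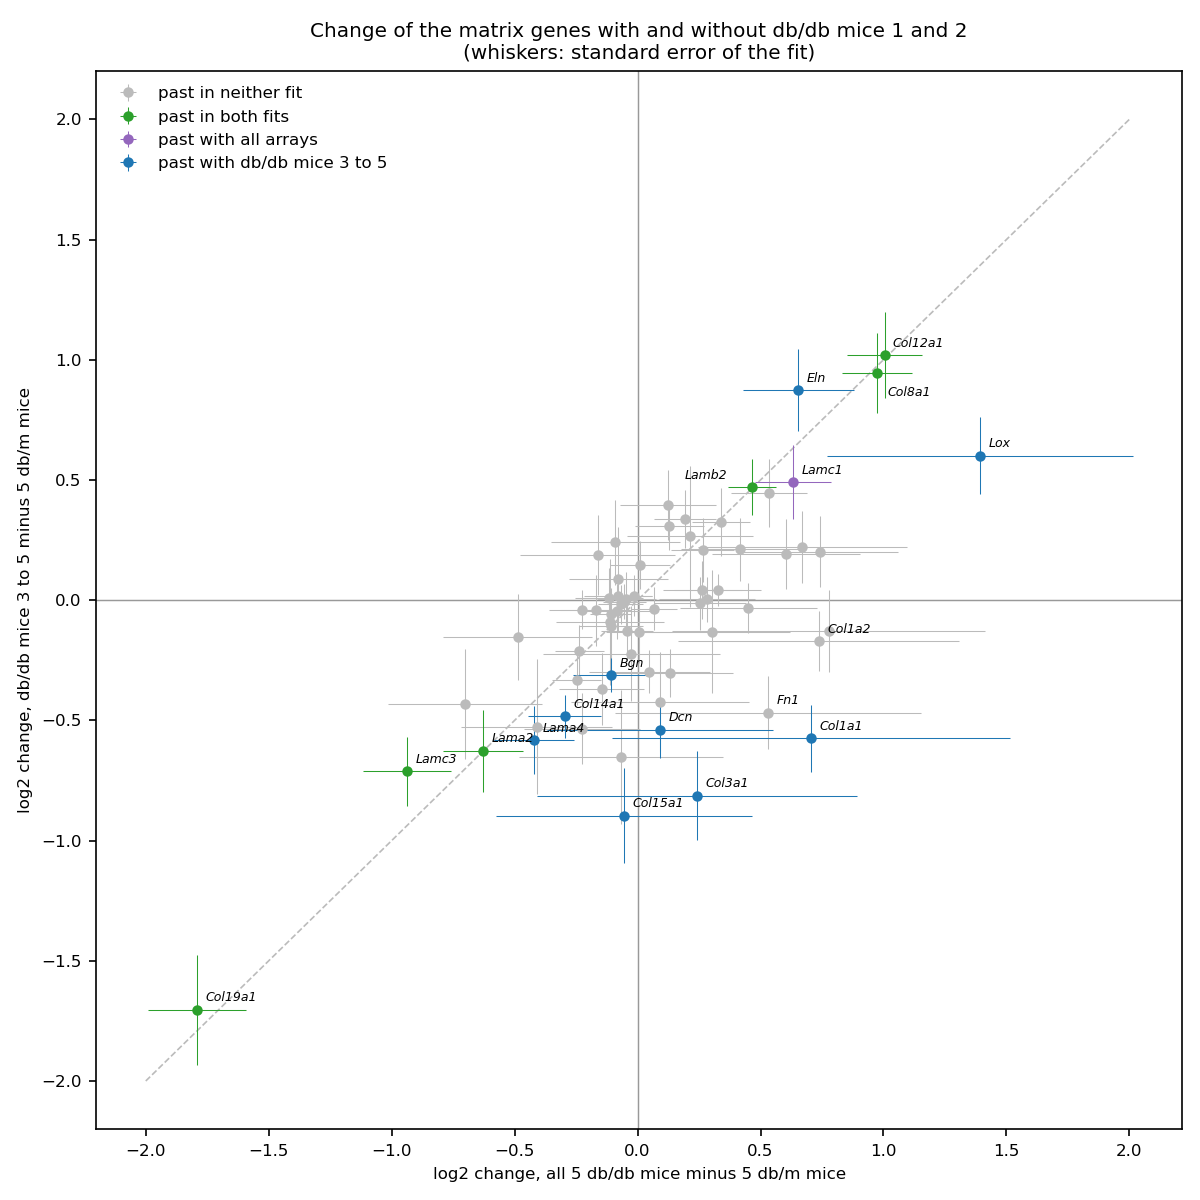
Log2 change of each of the 67 matrix genes with all 5 db/db mice (horizontal axis) and with db/db mice 3 to 5 alone (vertical axis), each against the same 5 db/m mice, with the standard error of the fit as whiskers. Genes near the dashed line of equality, such as Col19a1 at -1.79 and -1.70, changed alike in both, while Col1a1, Col3a1 and Fn1 lie right of zero and below it.

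The comparisons with all db/db mice and with mice 3 to 5 share the db/m mice and db/db mice 3 to 5, so their values are given side by side and not correlated. The sign of the change differed between them in 21 of the 67 genes, and between all arrays and the fit without db/db 1 in 14. By class, the median change was 0.048 for the 11 fibrillar collagens with all arrays and -0.13 with db/db mice 3 to 5 alone, 0.16 and -0.0051 for the 8 basement membrane collagens, -0.25 and -0.33 for the 5 laminin alpha chains, and 0.46 and 0.32 for the 3 laminin beta chains, beside -0.033 and -0.0023 over all genes.

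The machinery that folds and processes collagen was described from lists of the pathway's other genes. In the endoplasmic reticulum procollagen chains are hydroxylated, glycosylated and held by chaperones before they leave the cell. Of 14 such genes measured, 1 rose and 3 fell with all arrays, where 2.96% of all genes rose and 3.54% fell. P4ha1, the catalytic chain of collagen prolyl 4-hydroxylase, read 10.39, 10.17, 10.60, 10.87 and 10.79 in db/m 1 to 5 and 9.86, 9.60, 9.49, 9.54 and 9.49 in db/db 1 to 5. All 5 db/db mice were below all 5 db/m mice, and the gene fell 1.95-fold (-0.97 ± 0.14, adjusted p = 0.00422). Serpinh1, the collagen chaperone HSP47, read 11.14, 11.25, 11.44, 11.72 and 11.39 in db/m 1 to 5 and 11.09, 10.35, 10.18, 10.38 and 10.14 in db/db 1 to 5 and fell 1.95-fold (-0.96 ± 0.18, adjusted p = 0.0143). Crtap, a part of the prolyl 3-hydroxylase complex, fell by 0.66 ± 0.12 (adjusted p = 0.012), and P3h4, which belongs to a lysyl hydroxylase complex, rose by 0.55 ± 0.12 (adjusted p = 0.0236). In P4ha1, Serpinh1 and Crtap db/db 1, the mouse with the most collagen I message, was the diabetic mouse nearest to db/m. P4ha1, Serpinh1 and Crtap passed in each of the 10 fits without 1 array, and P3h4 in 6, the highest adjusted p being 0.0641, without db/m 3.

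Outside the cell, 0 of 5 procollagen processing genes passed by limma with all arrays, and 2 did at an unadjusted p under 0.05, where 21.5% of all genes did. These were Bmp1, the C-proteinase (0.48 ± 0.19, adjusted p = 0.177), which passed in none of the 3 fits, and Pcolce, an enhancer of that enzyme. Pcolce read 11.31, 11.39, 11.30, 11.49 and 11.19 in db/m 1 to 5 and 11.24, 11.84, 11.72, 11.58 and 11.70 in db/db 1 to 5, with db/db 2 to 5 above all 5 db/m mice and db/db 1 within their range. Its change was 0.28 ± 0.11 with all arrays (adjusted p = 0.177), 0.37 without db/db 1 (adjusted p = 0.0132) and 0.33 with db/db mice 3 to 5 alone (adjusted p = 0.0334). Of 19 matrix receptor genes 1 fell by limma, where 3.54% of all genes did. It was Itgb6, an epithelial integrin chain that activates TGF-beta (-0.80 ± 0.20, adjusted p = 0.0399), which passed in 2 of the 10 fits without 1 array. Of 13 other elastic fibre genes 1 rose by limma, where 2.96% of all genes did. That gene was Ltbp3, a carrier of latent TGF-beta (0.55 ± 0.11, adjusted p = 0.0164). Of 20 other glycoproteins and proteoglycans 1 rose and 1 fell by limma, where 2.96% and 3.54% of all genes did. Thbs1 (thrombospondin) rose by 0.66 ± 0.12 (adjusted p = 0.0134) and Prelp, a leucine-rich proteoglycan of basement membranes, fell by 0.67 ± 0.14 (adjusted p = 0.0192). Ltbp3 and Thbs1 kept the groups apart and passed in each fit without 1 array, and Prelp, also apart, passed in 9, with adjusted p = 0.0595 without db/m 3.

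Of the cell type marker sets, the macrophage and leukocyte set had the order of Col1a1 and Col3a1 in its summed level, and the others did not. Of 8 macrophage and leukocyte markers 7 were measured, and their summed level, on the log2 scale, was 12.00 to 12.32 in db/m, 14.87 in db/db 1, 13.22 in db/db 2 and 10.90 to 11.52 in db/db 3 to 5; Itgam was dim, and no marker has a zero on this scale. None passed with all arrays by limma (0 at an unadjusted p under 0.05, where 21.5% of all genes were), and 6 of 7 were lower with db/db mice 3 to 5 alone, where 5.13% of all genes were. Adgre1, a macrophage marker, read 7.63, 7.51, 7.84, 7.92 and 7.67 in db/m 1 to 5 and 11.60, 8.73, 6.68, 6.79 and 5.98 in db/db 1 to 5, so that its order of groups was that of Col1a1 and Col3a1, with db/db 1 and 2 above and db/db 3 to 5 below all 5 db/m mice. Not every marker had this order. In db/db 2, 5 of the 7 lay above all 5 db/m mice, and Csf1r, at 10.02, lay below them. In db/db 3, 5 lay below all 5 db/m mice, and the dim Itgam, at 5.02, lay above them. The summed level of this set follows its brightest gene, Lyz2 (13.96 in db/db 1). The 10 fibroblast and pericyte markers summed to 12.82 to 13.24 in db/m, 14.30 in db/db 1, 13.30 in db/db 2 and 12.85 to 13.06 in db/db 3 to 5. That sum follows the brightest genes, Vim and Acta2 (13.37 and 12.01 in db/db 1). The median of the 10 stood at 0.34 from the db/m mean in db/db 1, 0.10 in db/db 2 and -0.41 to 0.11 in db/db 3 to 5. Only Myh11 and Gli1 were below the db/m mean in db/db 1 (-0.67 and -0.37). Of the 10, 0 passed with all arrays by limma (2 at an unadjusted p under 0.05, where 21.5% of all genes were). With db/db mice 3 to 5 alone 1 of the 10 passed by limma, where 11.1% of all genes did. It was Pdgfrb, the pericyte receptor (-0.63, adjusted p = 0.00906, against -0.39 with all arrays). The others lay between -0.39 in Des and 0.65 in Myh11. Vim, the filament protein vimentin, was higher in all 5 db/db mice than in any db/m mouse but did not pass (0.72, adjusted p = 0.212). Of 6 injured tubule markers 3 rose, Krt18, Krt19 and Cdkn1a, where 2.96% of all genes did. The median of the 6 was 4.12 above the db/m mean in db/db 1 and 0.29 to 1.44 in the other diabetic mice. The 3 that rose were above all 5 db/m mice in every db/db mouse. In db/db 3 to 5, Havcr1 (-1.02, -0.35 and -0.42) and Vcam1 (-0.47, -0.036 and -0.35) lay below the db/m mean. Lcn2 did so in db/db 5 (-0.41). Proximal tubule markers had a median of -0.54 in db/db 1 and 0.0011 to 0.050 in the others, and the 8 endothelial markers of 0.013 to 0.23 in the 5 diabetic mice. The part of these cells in the matrix values was not tested.

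**Figure D5:**
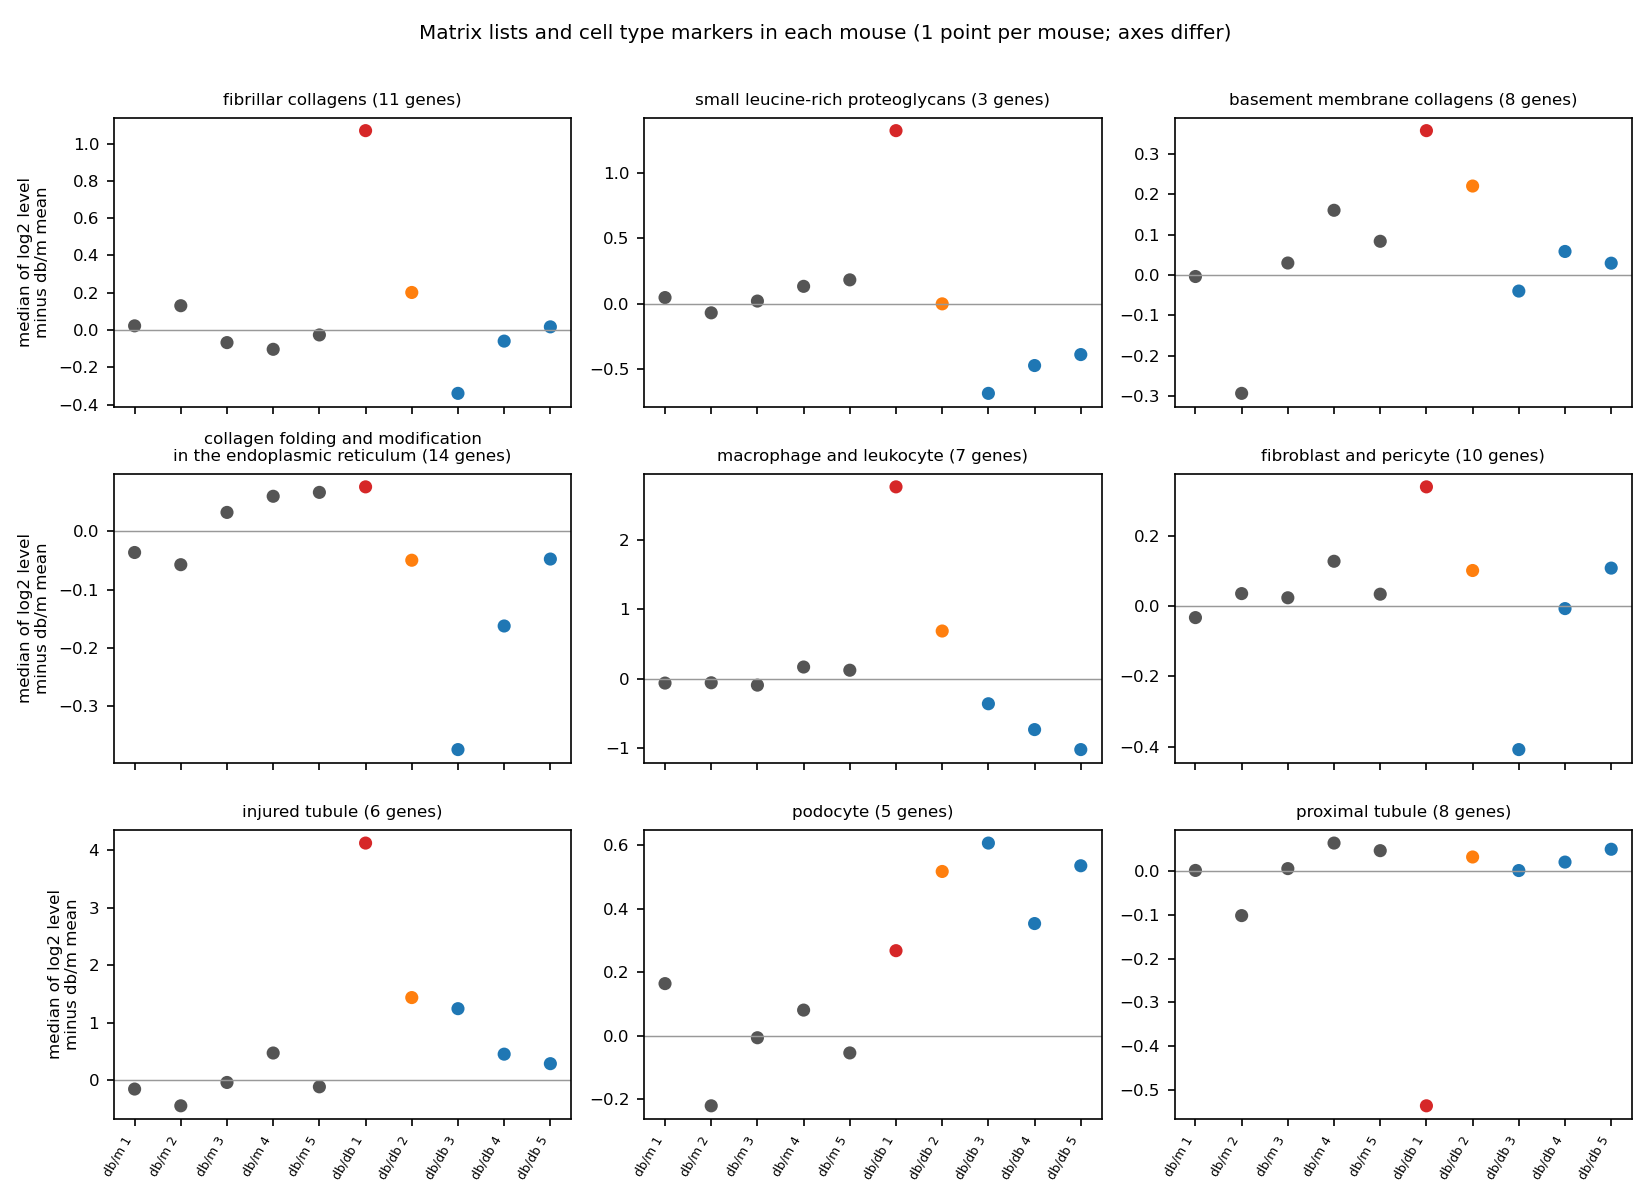
Median over the genes of a list of the log2 level minus the db/m mean, 1 point per mouse, for 4 matrix lists and 5 sets of cell type markers; the vertical axes differ between panels. Fibrillar collagens and macrophage and leukocyte markers are highest in db/db 1 (1.07 and 2.77). The median of the podocyte markers is above zero in all 5 db/db mice, although Nphs1 (-0.20) and Podxl (-0.12) lay below the db/m mean in db/db 1.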

How the data were processed

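Kidney cortex of 5 db/m and 5 db/db mice was measured on Affymetrix Mouse Genome 430 2.0 arrays. The values are log2 levels as deposited by the authors, computed with RMA per the submitters' processing notes, whose version and probe grouping are not given in the sources used here; no depth exists for arrays, and their number limits the precision. Of 16539 rows, 64 control rows were left out, and 15780 of the 16475 gene rows had 1 symbol in the supplied annotation. No further normalization was made. Each gene was fitted with limma 3.58.1 in R 4.3.3 (lmFit and eBayes), db/db minus db/m, two-sided, with Benjamini-Hochberg adjustment over all 16475 gene rows and a threshold of 0.05; ± after a change is its standard error. Dim means a mean level in the lowest 25% of genes. The matrix genes, the other gene lists and the markers were chosen with earlier results of these data known. Values are given in every mouse for genes that passed with all arrays, for textbook matrix genes, and for the 3 highest and 3 lowest changes of the rest; the gene of each class with the lowest adjusted p is named too. The labels call the samples separate mice. Same-numbered mice were not treated as pairs, because the labels name no pairs. The correlations of their deviations from the group means were -0.0948 to 0.00599, which cannot show that no mice shared a litter. On simulated data with 200 changed genes of 16475, the fit recovered 43% at a log2 change of 0.5 and 78% at 1, with 3 false calls. The simulated noise was normal, independent between genes and equal in spread in both groups. The simulation held no array that stood apart as db/db 1 did, so its figures need not hold for these arrays. Alternatives tried were a replicate block, dim genes left out, repeated quantile normalization, centred arrays, a trended robust eBayes, array weights, stricter thresholds and leaving out each array. Figures were drawn with matplotlib 3.10.9.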

Additional observations from a re-analysis of the deposited data

Results flagged for a closer look

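Over 72 groups of 5 mice checked, 6 had a mouse whose gap to the nearest other exceeded 0.71 of the range of its group, and chance gives about 5% of groups. Col3a1 in db/m 2 read 11.08, with the nearest db/m mouse at 10.50. The other 5 were in db/db 1. It was high in Lox, at 9.45 with the nearest db/db mouse at 6.39, in Lamb3, at 9.08 with the nearest at 7.12, and in Dcn, at 11.41 with the nearest at 9.33. It was low in Lama1, at 8.82 with the nearest at 9.35, and in Eln, at 6.53 with the nearest at 7.37.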

How the results depend on the processing

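The number of matrix genes that rose, 4 with all arrays, was 2 with the replicate block, with centred arrays and at an adjusted p under 0.01, and 2 to 6 without 1 array each (2 without db/m 5, 6 without db/db 1). The number that fell, 3, was 1 with the block and at 0.01, 7 with array weights and 10 with db/db mice 3 to 5 alone. Over all genes, 488 rose: 180 with the block, 1346 with array weights, 989 with mice 3 to 5, 132 at 0.01, 311 at 1.5-fold or more, and 234 (without db/m 3) to 1127 (without db/db 1) without 1 array. Over all genes, 584 fell: 213 with the block, 1295 with array weights, 147 at 0.01, 264 at 1.5-fold or more, and 256 (without db/m 3) to 977 (without db/db 1) without 1 array. With centred arrays 363 rose and 751 fell, and the median of all genes was -0.10. The median matrix change, 0.0094, was 0.17 with dim genes left out, -0.058 with centred arrays, -0.040 with mice 3 to 5, and -0.0027 to 0.12 without 1 array. The sign turned with array weights in Col1a1 (-0.096), Col3a1 (-0.40), Fn1 (-0.085), Mgp (-0.084), Nid1 (-0.013) and Dcn (-0.39). It turned with mice 3 to 5 in Col1a1 (-0.57), Col1a2 (-0.17), Col3a1 (-0.81), Col5a2 (-0.13), Col4a1 (-0.013), Lama1 (0.019), Fn1 (-0.47), Mgp (-0.30), Nid1 (-0.13) and Dcn (-0.54). Nid1 also turned with repeated quantile normalization (-0.034) and centring (-0.061). Without 1 array, changes ran from -0.13 to 1.12 in Col1a1, -0.39 to 0.56 in Col3a1, -0.54 to 0.28 in Col15a1, -0.14 to 0.042 in Lama1, -0.094 to 0.88 in Fn1, -0.071 to 0.30 in Mgp, -0.080 to 0.13 in Nid1, -0.40 to 0.29 in Dcn and -0.41 to 0.15 in Lum. The replicate block, on numbers that the labels do not call pairs, took 11 named genes that had passed with all arrays to the other side of the threshold. The other 34 named genes, passed or not, stayed on their side of it. The causes were not tested.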

Other observations

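Tnc, which encodes tenascin-C, a glycoprotein of injured and remodelling matrix, was named here after its values were seen. It read 5.42, 5.32, 4.84, 6.33 and 5.34 in db/m 1 to 5 and 9.17, 7.63, 6.35, 6.51 and 7.03 in db/db 1 to 5. All 5 db/db mice were above all 5 db/m mice, and the change was 1.89 ± 0.50 by limma (adjusted p = 0.0534), 1.43 without db/db 1 (adjusted p = 0.0181) and 1.18 with db/db mice 3 to 5 alone (adjusted p = 0.0362).

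Among matrix receptors, Sdc1 (syndecan-1) and Itga5, the fibronectin receptor chain, were also picked after their values were seen. In both, all 5 db/db mice were above all 5 db/m mice, with limma changes of 0.79 ± 0.33 (adjusted p = 0.195) in Sdc1 and 0.65 ± 0.31 (adjusted p = 0.256) in Itga5, and of 0.42 (adjusted p = 0.0165) and 0.24 (adjusted p = 0.044) with db/db mice 3 to 5 alone. Cd44, the hyaluronan receptor, read 11.66 in db/db 1 and 7.87 in db/db 2 against 5.89 to 6.81 in db/m. In db/db 3 it read 7.08, and in db/db 4 and 5 it lay below the db/m range, at 5.29 and 5.41.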
